A study of Drosophila melanogaster with 3 samples.

Results

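The peaks described here are the binding regions of the Deadpan-eGFP fusion that lie at start sites of non-coding genes and at no start site of a protein-coding gene. They were chosen by position. The summit, which is the strongest base of a peak, had to lie at most 500 bp from the start site of a gene that is not protein-coding, with annotated transposable elements left out, and more than 500 bp from every protein-coding start site of the fly genome (release 6, dm6). This held for 133 of the 5164 thresholded peaks (2.58%). A further 120 peaks lay within 500 bp of start sites of both kinds and were not counted. The data are chromatin immunoprecipitations with sequencing (ChIP-seq) from 3 biological replicates of 1 group. Whole embryos of both sexes, aged 0 to 24 h, carried an eGFP exon inside an intron of dpn (strain dpn-MiMIC-GFP), so that Deadpan is made as a GFP fusion from its own locus, and the fusion was precipitated with an antibody against GFP. There was 1 line, no group of another genotype or treatment, and all tissues and stages of embryogenesis were mixed, so a peak cannot be assigned to a cell type. The files hold ranked regions without read counts, and the depth of each library is therefore unknown.

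Deadpan, a bHLH transcriptional repressor related to the E(spl) and Hairy proteins, maintains the self-renewal of neuroblasts and takes part in early sex determination. Proteins of this kind are known to bind the E-box CACGTG, the class C site CACGCG and the N-box CACNAG. Non-coding genes are read by different machineries. Long non-coding RNAs (lncRNAs), snoRNA host genes and most primary microRNA transcripts come from RNA polymerase II. The tRNA genes and the U6 and 7SK genes are read by RNA polymerase III. Most of the other spliceosomal small nuclear RNA (snRNA) genes are read by RNA polymerase II under an upstream element of their own. By the class of the nearest start site, 91 of the 133 peaks lay at lncRNA genes, 14 at antisense RNA genes, 8 at snRNA genes, 7 at microRNA precursors, 5 at snoRNA genes, 4 at tRNA genes and 2 at snoRNA host genes of the Uhg family. Of the remaining peaks, 1 lay at an entry for a mature microRNA and 1 at another small non-coding RNA, sncRNA:204. By Ensembl biotype, with every start site in the window counted, 116 peaks (87.2%) lay at ncRNA genes, 8 at snRNA genes, 9 at snoRNA genes, 5 at tRNA genes and none at rRNA genes or pseudogenes. For 5 peaks 2 biotypes were within reach. The peaks belonged to 134 genes, of which 7 had 2 peaks each.

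The sequences below show the summit regions of 9 of these peaks, each with 75 bases on either side of the summit and read in the direction of the non-coding gene. They were taken from the NCBI sequence of the same genome release. The first is the strongest peak of the whole set, the next 4 lie at lncRNA genes that contain a microRNA, the following 3 are at long-studied lncRNA genes, and the last holds 2 copies of the DREF core. Capitals mark TATCGA (the core of the DNA replication-related element, DRE), the E-box CACGTG, the class C site CACGCG, the N-box CACNAG or the GAGA pattern GAGAGA, on either strand.
lncRNA:CR44619, chrX:12751372-12751522, plus strand: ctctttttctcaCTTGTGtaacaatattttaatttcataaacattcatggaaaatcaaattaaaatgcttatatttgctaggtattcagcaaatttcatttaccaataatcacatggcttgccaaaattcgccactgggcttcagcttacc
lncRNA:CR31044, chr3R:29214379-29214529, plus strand: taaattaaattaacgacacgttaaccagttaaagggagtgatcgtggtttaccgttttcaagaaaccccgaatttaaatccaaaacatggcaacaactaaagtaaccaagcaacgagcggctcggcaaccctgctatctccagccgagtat
lncRNA:CR43626, chr3L:3250183-3250333, plus strand: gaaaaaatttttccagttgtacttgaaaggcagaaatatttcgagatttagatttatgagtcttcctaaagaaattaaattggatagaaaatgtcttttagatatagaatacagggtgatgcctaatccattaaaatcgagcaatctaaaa
lncRNA:CR43857, chr2L:7423534-7423684, plus strand: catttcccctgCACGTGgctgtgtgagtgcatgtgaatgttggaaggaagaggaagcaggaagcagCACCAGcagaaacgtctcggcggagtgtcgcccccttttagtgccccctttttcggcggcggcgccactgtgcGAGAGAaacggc
lncRNA:CR43334, chr3L:628407-628557, plus strand: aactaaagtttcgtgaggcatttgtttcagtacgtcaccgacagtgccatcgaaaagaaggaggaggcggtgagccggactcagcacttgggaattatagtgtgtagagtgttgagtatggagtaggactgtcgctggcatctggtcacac
lncRNA:Hsromega, chr3R:21296289-21296439, plus strand: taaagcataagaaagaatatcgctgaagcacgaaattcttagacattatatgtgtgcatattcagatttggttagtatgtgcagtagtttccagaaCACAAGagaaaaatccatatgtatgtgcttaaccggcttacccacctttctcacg
lncRNA:flam, chrX:21631629-21631779, plus strand: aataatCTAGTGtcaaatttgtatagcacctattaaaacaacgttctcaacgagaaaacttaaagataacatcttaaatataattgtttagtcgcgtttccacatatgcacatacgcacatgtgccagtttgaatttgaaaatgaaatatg
lncRNA:roX1, chrX:3862435-3862585, minus strand: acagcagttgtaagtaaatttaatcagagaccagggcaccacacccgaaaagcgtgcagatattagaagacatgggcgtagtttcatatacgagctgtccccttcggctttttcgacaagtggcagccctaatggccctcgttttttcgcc
lncRNA:CR44700, chr2L:4350745-4350895, plus strand: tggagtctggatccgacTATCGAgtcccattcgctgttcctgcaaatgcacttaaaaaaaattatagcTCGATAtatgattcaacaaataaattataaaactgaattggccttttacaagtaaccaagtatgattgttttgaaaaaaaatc
The 5 letter patterns were found in 5 of these 9 windows. A Hes-type pattern stood in 4 of them, at CR44619, CR43857, Hsromega and flam. Within 50 bp of the summit, as in the shares given further on, only CR43857 and Hsromega held such a pattern. None of the 5 patterns was found at CR31044, CR43626, CR43334 and roX1, and this says only that these letters are not in the windows.

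The non-coding promoter peaks were spread over the whole range of strength. Ranked by the deposited signal value, 41 of them fell among ranks 1 to 1291 of the thresholded list, 25 among ranks 1292 to 2582, 33 among ranks 2583 to 3873 and 34 among ranks 3874 to 5164. Their median rank was 2597, against 2419 for the 2731 peaks at coding promoters and 2780 for the 2300 peaks away from all these start sites. In replicates 1, 2 and 3, as many top entries as the thresholded list holds contained 137, 133 and 138 entries that met the same rule, or 2.63% ± 0.0512 (SD, n = 3). The share was the same in the 3 libraries to within this spread.

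The same peaks were among the top entries of each library about as often as other peaks were. The thresholded list was made from these libraries, so a high recovery was largely given in advance and is no independent evidence. With summits matched within 150 bp, 85.7% of the 133 peaks were among the top entries of replicate 1, 82.7% in replicate 2 and 89.5% in replicate 3, on average 86.0% ± 3.39 (SD, n = 3). For the other thresholded peaks it was 85.3% ± 1.18. The difference of 0.660 ± 2.28 percentage points was smaller than its spread, it was positive in 2 of 3 replicates, and an exact sign-flip permutation test over the 3 replicates gave p = 0.75 (two-sided; the smallest p that 3 replicates allow is 0.25). The difference in median rank within a replicate was 6.67 ± 95.8 ranks (exact sign-flip permutation p = 1.00). Of the 133 peaks, 93 (69.9%) were matched in all 3 replicates, where the share over all thresholded peaks was 66.9%. The match depended on strength. All 66 peaks of rank 2582 or better were matched in all 3 replicates, as were 21 of the 33 peaks of ranks 2583 to 3873 and 6 of the 34 weaker ones. For the other thresholded peaks the shares over the same 4 rank ranges were 99.7%, 96.3%, 63.1% and 8.35%, beside 100%, 100%, 63.6% and 17.6% for the non-coding promoter peaks.

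**Figure D1:**
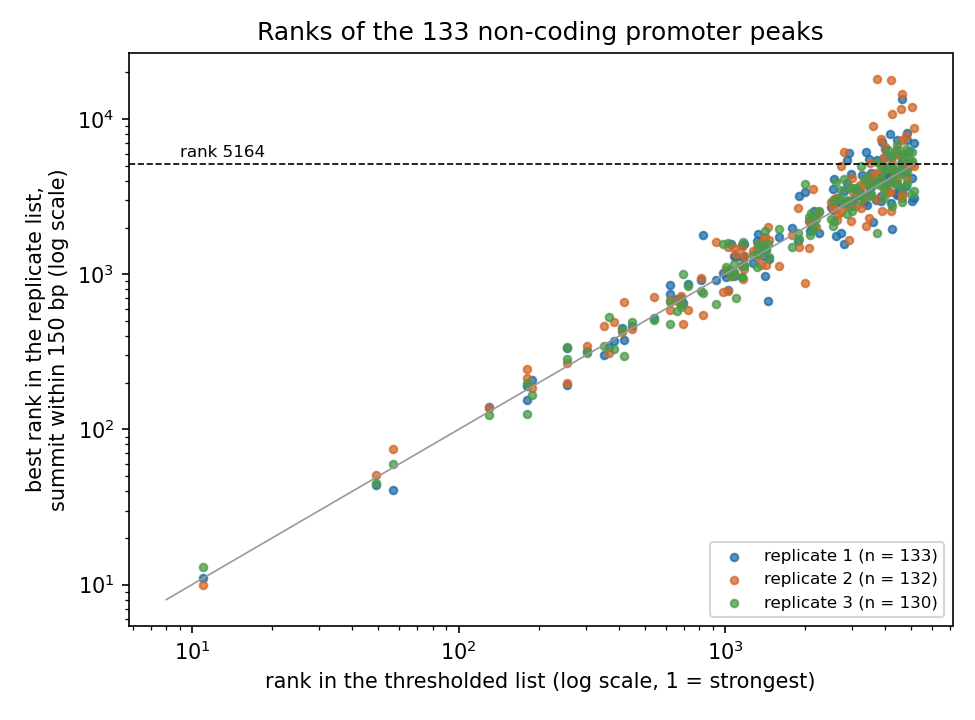
Best rank in each replicate (y, log scale) against the rank in the thresholded list (x, log scale) for the 133 non-coding promoter peaks, with 1 point per peak and replicate that had an entry within 150 bp of the summit. The grey line marks equal ranks and the dashed line rank 5164. Points follow the line closely at the top, and all 20 best-ranked peaks stay at rank 853 or better in every replicate, while peaks near the end of the list scatter across the dashed line.

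The strongest peak of the set, at lncRNA:CR44619 on chromosome X, ranked 11 of 5164 and was 11, 10 and 13 in the 3 replicates. Its summit (X, position 12751447) lay 420 bp upstream of the CR44619 start site and inside the lncRNA gene Vinr (12749894 to 12752350), which runs in the same direction. A second strong peak of rank 25 (23, 28 and 26 in the replicates) lay 505 bp downstream of the same start site and so just outside the rule. The second strongest, at lncRNA:CR31044 on 3R, ranked 49 (44, 51 and 45) with its summit 108 bp upstream of the start site. The third, at lncRNA:CR31840 on 2L, ranked 57 (41, 75 and 60) with its summit 23 bp downstream of the start site. The ranks of the first 2 were close in the 3 libraries, and those of CR31840 ranged from 41 to 75. For these 3 genes the nearest coding start site was 2925 to 5718 bp away.

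The other peaks among the 20 best-ranked were of ranks 130 to 661, and all 20 were matched in all 3 replicates. They lay at lncRNA:CR44810, CR45668, CR45997, CR43626, CR44867, CR46102, CR45325, CR44676, CR44917, CR44380, CR44478, CR44331 and CR43644, at the antisense genes asRNA:CR45908, CR45999 and CR45281, and at the snoRNA host gene Uhg4. Several of these start sites sit near or inside well-known coding genes. CR45997 is in an intron of mbl, which encodes a splicing regulator, with its summit 2797 bp from the nearest coding start site. CR44331 is in an intron of puc, the phosphatase that limits JNK signalling, on the opposite strand and 7598 bp from a coding start site. CR44478 is in an intron of Socs36E, an inhibitor of JAK/STAT signalling, also on the opposite strand and 6938 bp away. CR45668 lies beside the actin gene Act5C, 650 bp from its start site, and CR43644 lies beside E(spl)m3-HLH, a Notch-responsive bHLH repressor gene, 512 bp from its start site and so only just inside the rule. Its peak ranked 661 (698, 674 and 576). Which of the 2 neighbouring genes such a peak belongs to cannot be told from a summit position.

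Of the non-coding genes with a start site over 500 bp from every coding one, few had a peak. This was so for 126 of 3235 genes (3.89%), beside 3412 of 13968 protein-coding genes (24.4%) with a thresholded summit within 500 bp of a start site. The classes differed. Of 29 snRNA genes 7 had a peak (24.1%), and the share was 24.1% in the own top entries of each of the 3 replicates. The equal shares come from the same genes ranked again and leave out the counting error of 7 among 29. Of the 7, U6:96Ab and U6:96Ac share a peak. Of 1695 lncRNA genes 86 had one (5.07%; 4.86% ± 0.246 in the replicates, SD, n = 3). The share was 3.75% of 240 snoRNA genes (4.44% ± 1.58), 3.05% of 328 antisense RNA genes (3.05% ± 0.305), 3.03% of 231 microRNA precursors (2.89% ± 0.661) and 1.94% of 258 tRNA genes (2.58% ± 0.592). The small class of Uhg snoRNA host genes had the highest share, 2 of 4 genes, with 25%, 50% and 50% in replicates 1, 2 and 3. The snRNA share stood above those of the 5 larger classes in every library, and the antisense, microRNA and snoRNA shares overlapped one another between libraries. None of 285 pseudogenes had a peak, which allows a share of up to 1.05%, and none of 99 rRNA genes, which allows up to 3.03% (both limits cover counting error only). Replicate 2 alone had an own top entry at a pseudogene (0.351%).

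**Figure D2:**
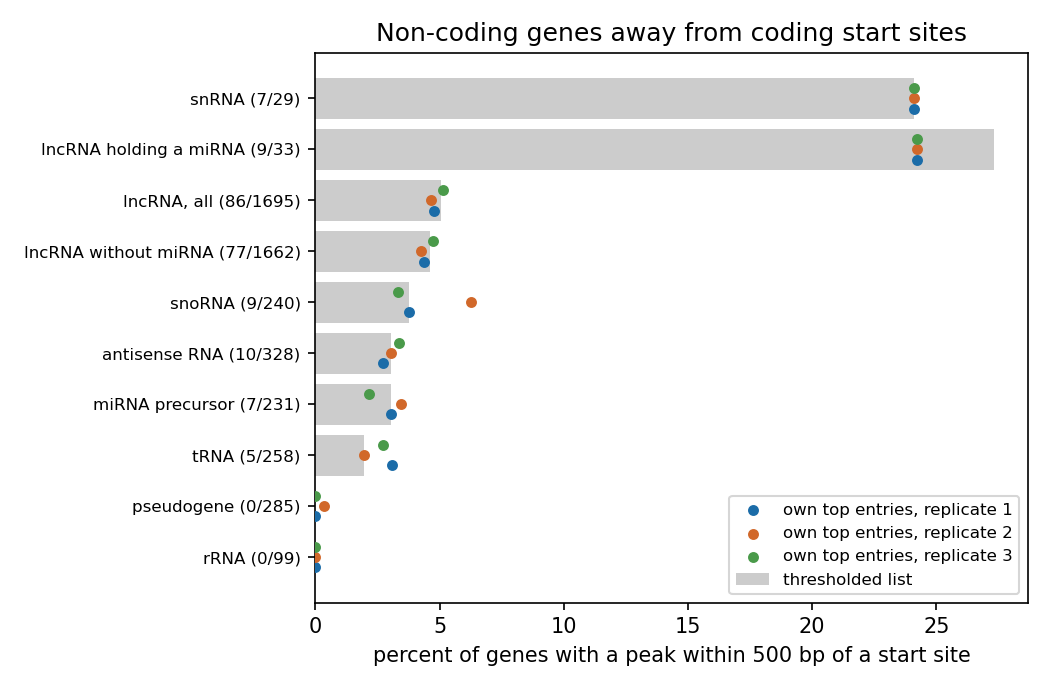
Percent of non-coding genes (x) with a peak within 500 bp of a start site, by class (y, with the number of genes with a peak over all genes of the class), among genes with a start site over 500 bp from every coding one. Bars give the thresholded list and points the own top entries of the 3 replicates. The snRNA genes and the lncRNA genes that hold a microRNA reach 24.1% and 27.3%, and the other classes drawn stay at or below 6.25% in each library. The 4 Uhg genes are not drawn.

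A larger share of the lncRNA genes that contain a microRNA than of the other lncRNA genes had a peak at a start site, in the thresholded list and in each replicate. This grouping was made after the members had been seen. A microRNA precursor on the same strand lay inside 33 of the 1695 lncRNA genes, and 9 of these 33 (27.3%) had a peak, against 77 of the other 1662 (4.63%). In the own top entries of the replicates the share was 24.2% of the host genes in each of the 3 (8 of 33, with 7 genes in all 3 libraries), against 4.39%, 4.27% and 4.75% of the other lncRNA genes. The difference of 19.8 ± 0.251 percentage points (SD, n = 3) had the same sign in 3 of 3 replicates. The exact sign-flip permutation test gave p = 0.25, the smallest it can give, so that 3 replicates cannot carry this difference past 0.05. The SD covers the re-ranking of largely the same genes between libraries, not the counting error of 9 among 33 genes. The thresholded list was made from these libraries, so their agreement is no independent evidence. The host genes were longer and had more start sites. Their median length was 10400 bp with a peak and 6116 bp without, against 598 and 667 bp for the other lncRNA genes. Among genes with 1 start site, 4 of 20 host genes (20%) and 71 of 1589 others (4.47%) had a peak, and among genes of 2000 bp or more it was 8 of 30 (26.7%) and 8 of 159 (5.03%). With 1 start site only, the difference over the replicates fell from 19.8 to 12.4 percentage points.

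All 9 of these peaks lay outside coding genes, and 6 of the 9 summits lay at most 121 bp from the start site. CR31044, the second strongest member, runs from 29214562 to 29219667 on the plus strand of 3R and holds mir-279, which limits the formation of carbon dioxide-sensing neurons, and mir-996. Its summit was 1131 bp from the start of the mir-279 precursor. CR43626 on 3L, the host of mir-282, had a peak of rank 188 (208, 184 and 167), 764 bp from the precursor. CR43650 on 2R, the host of the growth regulator mir-8, ranked 1459 (1263, 1663 and 1294) and lay 864 bp from it. CR43651 on 2R, the host of mir-14, known for its part in cell survival and fat metabolism, ranked 2964 (4439, 2220 and 3574), with the summit 58 bp from the lncRNA start site. CR43857 on 2L holds mir-275, and the locus had a peak at the lncRNA start site (rank 3690; 3025, 4474 and 3951) and a stronger one 442 bp upstream of the precursor itself (rank 1995; 3372, 881 and 3813). The peak at the lncRNA start site was the stronger of the pair in replicate 1 and the weaker in the other replicates.

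The other host peaks ranked lower. CR44206, the host of mir-184, ranked 4163 (8044, 3395 and 4904) and its summit was 25 bp from a start site. CR43334, the host of bantam, a microRNA that promotes growth and blocks cell death, ranked 4567 (3569, 11578 and 5105), with the summit 12 bp from the start site and 13726 bp from the precursor. CR43314, the host of mir-bft, ranked 5048 (4199, 5174 and 5380), 81 bp from its start site. Hsromega, which is counted here because it holds mir-4951, is described with the long-studied genes. The 24 host genes without a peak include those of mir-1, mir-124, mir-9a, mir-10 and the let-7 cluster.

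The microRNA precursors whose annotated start was near a summit mostly lay inside coding genes. This start is the end of the annotated precursor, of 52 to 144 bp, and need not be where transcription begins. Apart from mir-275, the precursors were mir-9378 in CG17124 (rank 1082), mir-9377 in Tis11 (1363), mir-2491 in fog (2856), mir-967 in bun (3730), mir-4962 in Tlk (4411) and mir-2282 in sty (4418). All 6 lie inside these genes on the same strand, and all 6 summits were intronic. The single entry for a mature microRNA belongs to mir-4968 (rank 4189), whose precursor starts 548 bp from the summit. Over all 260 microRNA precursors, 184 had no entry of any strength within 500 bp in the pooled list. The same held for 164 of 269 snoRNA genes and 159 of 290 tRNA genes.

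The spliceosomal snRNA genes are present in several near-identical copies, and the peaks marked some copies and not others. Of 32 snRNA genes, 8 had a non-coding promoter peak, 1 further gene (U5:35D) had a thresholded summit that also lay near a coding start site, 9 had an entry in the pooled list below the threshold only, and 14 had none at all within 500 bp. The U1, U2, U4, U5 and U6 families each had at least 1 such gene, as did 7SK, the RNA that holds back the elongation factor P-TEFb. U7, U11, U12, U4atac, U6atac and LU had none. Reads from near-identical copies can be placed on the wrong copy or dropped, depending on how the aligner treated them, which is not given in the sources used here. This holds as well for the tRNA, rRNA and snoRNA genes, whose shares above are uncertain for the same reason, and its part in these results was not tested.

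The U1 RNA, which recognises the 5' splice site, had the strongest snRNA peak. At snRNA:U1:95Ca (3R) 1 summit, 135 bp downstream of the start site, ranked 1004 (965, 1065 and 1117 in the replicates), and another, 73 bp upstream, ranked 4625 (3337, 3272 and 3596). The other copies at the same cytological place, U1:95Cb and U1:95Cc, had no thresholded peak, and U1:95Cb had an entry in replicate 1 only, at rank 11076. U1:21D (2L) ranked 3093 (3211, 3488 and 3521). A peak between the U6 genes U6:96Ab and U6:96Ac (3R) ranked 1085 (1314, 1022 and 1165), 110 bp upstream of U6:96Ac, while the third U6 copy beside them, U6:96Aa, had an entry in replicate 3 only, at rank 9986. U2:34ABb (2L) ranked 1331 (1806, 1284 and 1559), U5:63BC (3L) ranked 1875 (1643, 2686 and 1856) and U4:39B (2L) ranked 1887 (3185, 1498 and 1687). 7SKa (3R) ranked 3029 (3003, 3396 and 3007), and its copy 7SKb had no entry in any library. Each of the 8 summits at snRNA genes was among the top entries of all 3 replicates, and none of the other snRNA genes except U5:35D reached the top entries of any. The summits lay downstream of the start site in 6 of 8 cases, with a median of 92 bp, and 4 of 8 were within 100 bp of it.

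**Figure D3:**
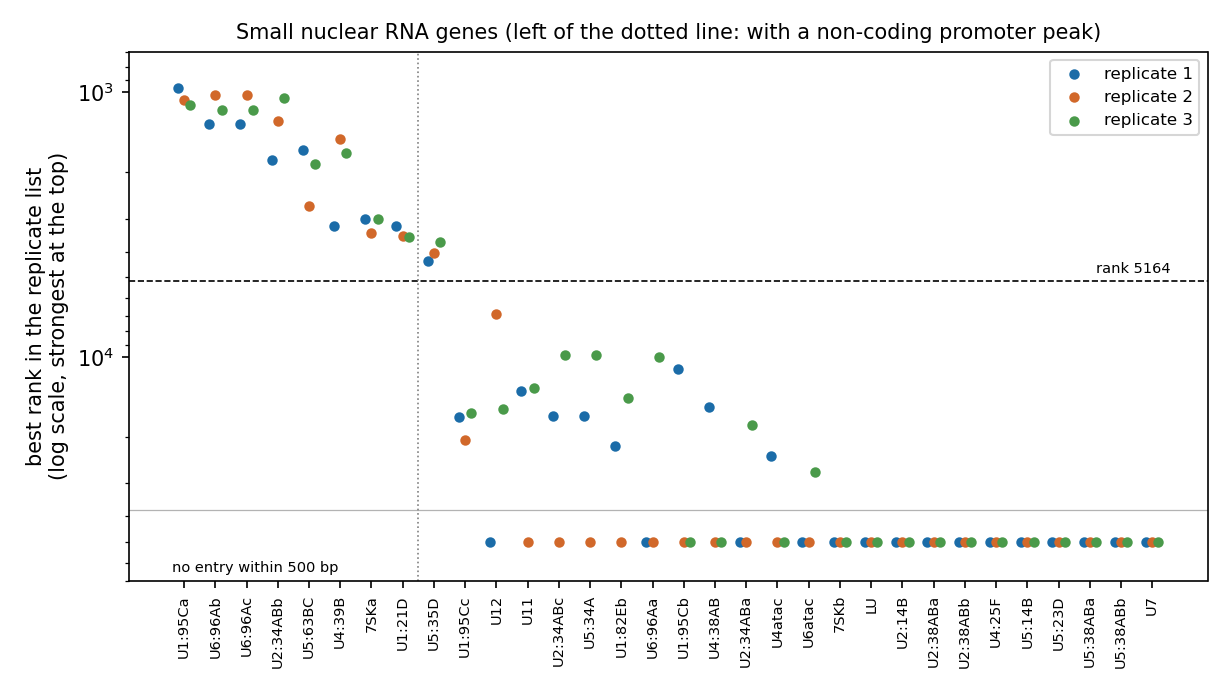
Best rank (y, log scale, strongest at the top) of any entry within 500 bp of the start site of each of the 32 snRNA genes (x) in the list of each replicate. The dashed line is rank 5164, points in the lowest band had no entry, and genes left of the dotted line have a non-coding promoter peak. These 8 genes and U5:35D lie above the line in all 3 replicates, and all other genes lie below it in all 3.

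The 80 bases upstream of the 8 snRNA genes with a peak are shown next, in the direction of the gene and ending at the base before the start site, since all 8 share an element at one place. Capitals mark AATTCNCAA, which was read off these sequences and resembles the proximal sequence element that directs snRNA transcription in flies.
snRNA:U1:21D, chr2L:901655-901734, minus strand: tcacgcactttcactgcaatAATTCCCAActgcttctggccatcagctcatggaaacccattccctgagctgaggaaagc
snRNA:U1:95Ca, chr3R:23859631-23859710, minus strand: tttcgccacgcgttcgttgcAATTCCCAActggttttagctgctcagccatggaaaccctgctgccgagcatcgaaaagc
snRNA:U2:34ABb, chr2L:13215759-13215838, plus strand: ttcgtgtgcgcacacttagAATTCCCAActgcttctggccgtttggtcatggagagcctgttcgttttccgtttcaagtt
snRNA:U4:39B, chr2L:21215179-21215258, minus strand: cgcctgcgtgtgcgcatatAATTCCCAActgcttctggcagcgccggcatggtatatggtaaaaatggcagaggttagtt
snRNA:U5:63BC, chr3L:3090721-3090800, plus strand: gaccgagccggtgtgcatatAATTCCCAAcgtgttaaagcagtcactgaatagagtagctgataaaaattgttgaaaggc
snRNA:U6:96Ab, chr3R:24556612-24556691, plus strand: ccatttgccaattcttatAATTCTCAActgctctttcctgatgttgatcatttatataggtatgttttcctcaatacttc
snRNA:U6:96Ac, chr3R:24557135-24557214, plus strand: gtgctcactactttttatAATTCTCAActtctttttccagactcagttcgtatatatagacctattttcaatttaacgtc
snRNA:7SKa, chr3R:7474997-7475076, minus strand: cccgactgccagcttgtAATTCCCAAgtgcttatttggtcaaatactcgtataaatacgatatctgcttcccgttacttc
The 80 bases upstream of 5 copies from the same families without a peak read as follows.
snRNA:U1:95Cb, chr3R:23827790-23827869, plus strand: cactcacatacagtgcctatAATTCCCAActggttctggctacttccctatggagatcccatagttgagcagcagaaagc
snRNA:U2:34ABc, chr2L:13244562-13244641, minus strand: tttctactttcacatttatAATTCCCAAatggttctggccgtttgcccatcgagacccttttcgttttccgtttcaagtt
snRNA:U4:38AB, chr2L:19810654-19810733, plus strand: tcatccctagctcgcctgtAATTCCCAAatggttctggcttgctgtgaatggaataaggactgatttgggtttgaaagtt
snRNA:U6:96Aa, chr3R:24556008-24556087, plus strand: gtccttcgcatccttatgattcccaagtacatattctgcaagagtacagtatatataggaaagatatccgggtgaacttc
snRNA:7SKb, chr3R:23432789-23432868, plus strand: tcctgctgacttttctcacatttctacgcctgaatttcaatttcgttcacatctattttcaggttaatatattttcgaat
AATTCNCAA, searched on both strands, was found in all 8 genes with a peak, with its first base 63 to 60 bases before the start site. Its presence in all 8 was given in advance, since the pattern was read off them. It was found in 19 of the 24 snRNA genes without a non-coding promoter peak (79.2%), a share that cannot be set against the 8. By comparison, 0.462% of 19276 protein-coding start sites and 0.921% of 2064 lncRNA start sites held it in the same window. Among the copies printed, U6:96Aa and 7SKb lack it in this form and have no peak, but U1:95Cb, U2:34ABc and U4:38AB hold it and have no peak either. U12, U5:34A, U5:35D and U6:96Aa read GATTCCCAA near the same place. Of these, U5:35D had a thresholded summit near a coding start site (rank 3836).

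The snoRNA host genes gave both strong and weak peaks. Uhg genes are non-coding genes whose introns release snoRNAs, the guides of rRNA modification. Uhg4 on 2R ranked 256 (192, 267 and 338) with the summit 65 bp upstream of the start site, 550 bp from the coding gene Boot. Uhg1 on 2R ranked 2915 (6046, 1658 and 3629) with the summit 81 bp upstream. Uhg4 was strong in all 3 libraries, while Uhg1 was outside the top entries of replicate 1. Uhg5 and Uhg8 had thresholded summits (ranks 2807 and 4524) that also lay near coding start sites, and Uhg2, Uhg3 and Uhg7 had none. Of the peaks with a snoRNA gene as nearest gene, the best-ranked was at Or-CD13 (rank 1025, with 1031, 783 and 1594 in the replicates). Its summit lay 450 bp downstream of the Or-CD13 start, in an intron of egr (the fly TNF gene) on the opposite strand. The next was at Or-CD4 (1327, with 1353, 1534 and 1355), 421 bp downstream. Or-CD4 lies inside Uhg5 on the same strand, and this summit (14624674) was beyond the end of Uhg5 (14624498). A peak of rank 1408 (968, 1749 and 1890) lay 40 bp upstream of snoRNA:185 and within reach of tRNA:Glu-TTC-1-5.

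Few transfer RNA genes, many of them near-identical copies, had a non-coding promoter peak in these lists, and most such peaks were weak. Of 290 tRNA genes, 5 had such a peak, and 18 had a thresholded summit when those near coding start sites are counted. An excluded peak, 437 bp from tRNA:Val-CAC-2-5 and 462 bp from a coding start site, ranked 776. The best-ranked non-coding promoter peak with a tRNA as nearest gene was at tRNA:Gln-TTG-2-1 on X (rank 1320, with 1636, 1459 and 1109 in the replicates). It lay 226 bp upstream of the tRNA start, inside an intron of a coding gene. The others were at tRNA:Val-CAC-1-1 (3981), the pair tRNA:Arg-CCT-1-2 and Arg-CCT-1-3 (3986) and tRNA:Glu-TTC-1-5 (4241), and each of these missed the top entries of 1 replicate. None of these summits lay within 100 bp of the tRNA start site. The B-box pattern GGTTCGA, part of the internal promoter of tRNA genes, was found within 50 bp of none of the 133 summits.

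Among 65 well-known non-coding genes that the annotation matched, 13 had a peak, namely 8 snRNA genes, the 2 Uhg genes and 3 lncRNA genes. Over all non-coding genes it was 134 of 3828. The list was picked by name and includes all 32 snRNA genes, which supply 8 of the 13. Its share is therefore not one of well-known genes in general. Hsromega (3R, 21296127 to 21317836), the heat-inducible RNA of the omega speckles, ranked 1788 (2000, 1795 and 1489) with its summit 237 bp downstream of the start site. Flam (X), the piRNA cluster that silences retroviral elements in ovarian follicle cells, ranked 2109 (2123, 2165 and 2488), 187 bp upstream. RoX1 (X), an RNA of the dosage compensation complex, ranked 3273 (4376, 3707 and 3242), 85 bp upstream of the nearest of its start sites. These 3 peaks were among the top entries of all 3 replicates. The other RNA of that complex, roX2, had a best pooled rank of 9278 and uneven ranks in the replicates (5076, 18014 and 12396), so it reached the top entries of replicate 1 only. Of the 52 genes on the list without a non-coding promoter peak, 3 (U5:35D, Uhg5 and Uhg8) had a thresholded summit near a coding start site as well. No entry of any strength was found in the pooled list within 500 bp of the start sites of bxd, cherub, let7C, RNaseP:RNA or the 7SL RNA genes. An absent entry was also common among microRNA precursors, snoRNA genes and tRNA genes, and its share over all lncRNA genes is not given here.

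The summits were spread around the non-coding start sites far more loosely than around coding ones. Of the 133 summits, 30 (22.6%) lay within 100 bp of the nearest non-coding start site, and 72 (54.1%) lay upstream of it, with a median position of -64 bp. Of the 2731 summits at coding promoters, 53.7% lay within 100 bp and 79.9% upstream, with a median of -72 bp. In the own top entries of the replicates, 25%, 20.3% and 21.9% of the entries that met the rule lay within 100 bp, against 56.8%, 50.3% and 52.4% of coding promoter entries. The difference of 30.8 ± 0.942 percentage points (SD, n = 3) had the same sign in 3 of 3 replicates (exact sign-flip permutation p = 0.25, two-sided, the smallest possible). The upstream share differed by 21.9 ± 2.89 percentage points in the same direction (exact sign-flip permutation p = 0.25). Both SDs cover the re-ranking of largely the same peaks between libraries, not the counting error of 133 peaks. Among lncRNA genes 19.8% of 91 summits lay within 100 bp, among antisense RNA genes 21.4% of 14, and among snRNA genes 50% of 8. Both Uhg summits did. The rule limits distances to 500 bp for both kinds of gene, so only the shape within this window is compared. In bins of 100 bp, the 133 non-coding promoter summits were not concentrated at the start site. The bins on either side of it held 11.3% each, the others 4.51% to 15.8%, and the fullest lay 200 to 100 bp upstream. The lncRNA summits were not binned apart, but their 19.8% within 100 bp was below the 22.6% of the whole set. The name non-coding promoter peak thus states position only.

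**Figure D4:**
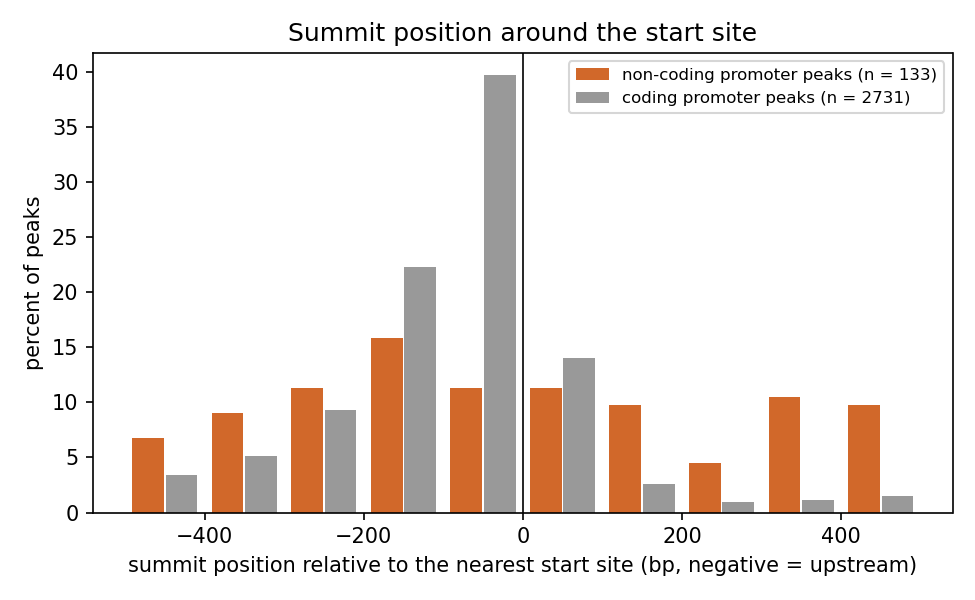
Percent of peaks (y) by position of the summit relative to the nearest start site (x, bp, bins of 100 bp, negative upstream) for the 133 non-coding promoter peaks and the 2731 coding promoter peaks. Coding promoter peaks pile up in the 100 bp before the start site (39.7%), whereas no bin holds more than 15.8% of the non-coding promoter peaks.

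Most of the non-coding promoter peaks lay outside coding genes altogether. This was so for 86 of 133 summits (64.7%), while 46 (34.6%) were in introns of coding genes and 1 was in a 5' UTR. Of the 2300 peaks away from all start sites, 28.3% were outside coding genes and 68.0% in introns. The rule ties each of the 133 summits to a non-coding start site, so their share depends on where those genes are annotated. The share of all such start sites outside coding genes is not given here, so the 2 sets cannot be compared as binding. A non-coding exon held 52 of the 133 summits (39.1%). The nearest coding start site was 506 to 32883 bp away, with a median of 2925 bp, and was within 1000 bp for 26 peaks. The antisense RNA genes, which overlap a coding gene on the other strand, had 10 of their 14 summits in introns of coding genes. The best-ranked was asRNA:CR45908 (rank 368; 338, 313 and 530), inside CG1943. CR44429 (1030; 795, 1504 and 1061) lies in gce, which encodes a juvenile hormone receptor, 613 bp from a coding start site. The chromosome arms 2L and 2R held 33 peaks each (24.8% of the 133, beside 18.7% and 18.3% of all thresholded peaks). 3R held 26 (beside 24.0%), X held 22 (beside 18.5%) and 3L held 19 (beside 20.1%). Chromosome 4 held none, but only 24 of all thresholded peaks (0.465%) lie there.

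The DRE core stood beside fewer summits at non-coding promoters than at coding ones in each of the 3 libraries. TATCGA, on either strand, was found within 50 bp of 9 of the 133 summits (6.77%; 5.40% ± 0.888 in the own top entries of the replicates, SD, n = 3). It was found at 16.1% of coding promoter peaks, at 3.30% of peaks away from start sites and at 10.2% of all thresholded peaks. In windows of the same length in the flanks, 400 bp away, it was found for 1.5% of the non-coding promoter peaks and 3.99% of the coding ones, and 800 bp away for 7.52% of the former, close to the share at their summits. In the replicates' own non-coding promoter entries, the flanks 400 bp away held it for 2.92%, 2.26% and 3.62%. The summits exceeded these flanks by 2.46 ± 1.18 percentage points (SD, n = 3, exact sign-flip permutation p = 0.25). In the own top entries of the 3 replicates, 4.38%, 6.02% and 5.80% of the non-coding promoter entries held the core, against 16.8%, 14.2% and 15.6% of the coding promoter entries. The difference was 10.2 ± 2.14 percentage points (SD, n = 3) and the groups did not overlap (exact sign-flip permutation p = 0.25, two-sided, the smallest possible). This SD covers the re-ranking of largely the same peaks between libraries, not the counting error of 9 among 133 peaks. The full element TATCGATA, which contains TATCGA, was beside none of the 133 summits and beside 5.27% of coding promoter summits. The 9 genes with the core were CR43243, CR44700, CR44127, CR45739, Uhg1, CR45539, CR44868, CR44184 and CR45451, with ranks from 1598 to 4797, and none was among the 20 best-ranked.

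Of the 3 sites known for Hes proteins, the N-box was about as common beside these summits as in their flanks. The E-box and the class C site were found beside fewer summits than flanks, as they were over all thresholded peaks, and at few peaks. The N-box CACNAG stood within 50 bp of 10.5% of the 133 summits (13% ± 2.24 in the replicates, SD, n = 3) and in 9.77% of their flanks, beside 10.7% of all thresholded summits. In the replicates the summits exceeded the flanks by 2.97 ± 3.23 percentage points, which is less than the spread (exact sign-flip permutation p = 0.5). CACGTG stood at 1 summit (0.752%) and in the flanks of 4 peaks (3.01%), beside 0.794% and 1.20% over all thresholded peaks. In the replicates the shares were 0.986% ± 0.448 and 3.44% ± 1.17. CACGCG stood at none of the summits and in the flanks of 6 peaks (4.51%), beside 1.80% and 2.71% over all thresholded peaks. In the replicates the shares were 1.47% ± 0.733 and 2.70% ± 0.458. GAGAGA, the pattern read by GAGA factor, stood at 6.02% of the summits (4.88% ± 1.79 in the replicates) and in 1.5% of the flanks (3.42% ± 3.36 in the replicates, a spread larger than the gap to the summits), beside 4.16% of all thresholded summits. With 133 peaks, each of these shares rests on at most 14 peaks. The summit regions were 63.0% A and T (62.0% ± 0.946 over the replicates' own entries), and their left and right flanks 58.7% and 57.0%. The summit share was 60.9% for coding promoter peaks and 64.8% for peaks away from start sites.

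**Figure D5:**
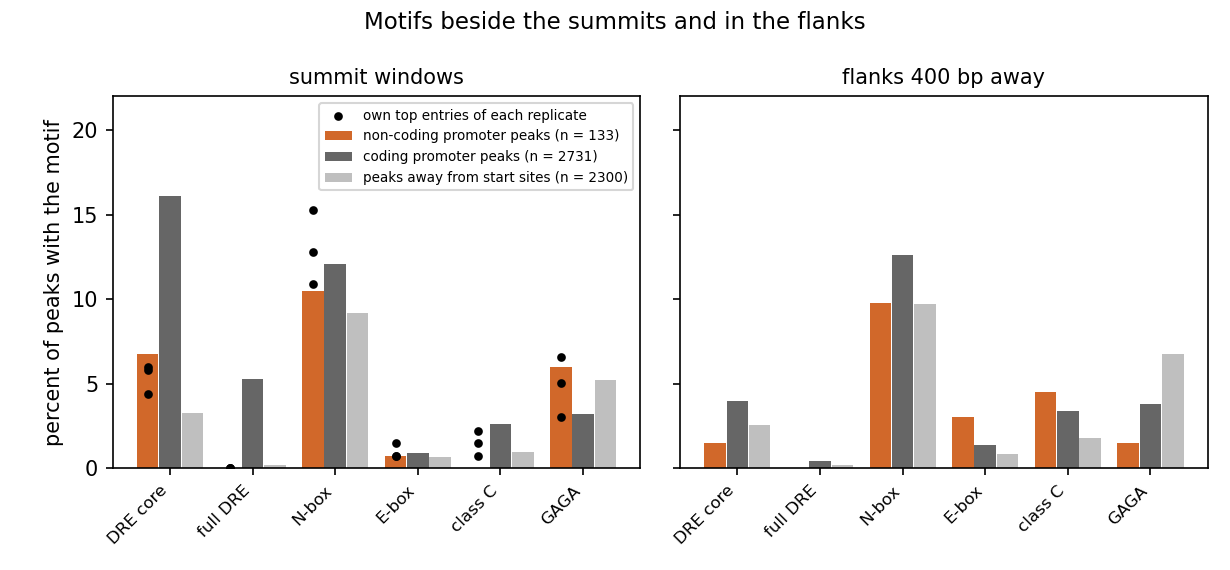
Percent of peaks (y) with each motif (x) within 50 bp of the summit (left) and in windows of the same length 400 bp away (right), for non-coding promoter peaks, coding promoter peaks and peaks away from start sites. Black points are the own top entries of the 3 replicates that met the rule. The DRE core is at 6.77%, 16.1% and 3.30% of summits in the 3 sets, and the N-box is about as frequent at the summits as in the flanks.

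The limits of the rule fall among peaks of every strength. The members nearest to the limit on the non-coding side were CR45277 and CR44022 (both 498 bp from the start site) and CR44682 (494 bp), and the nearest excluded peaks were those at CR44619 (505 bp), CR44467 (508 bp) and CR42736 (516 bp). On the coding side, the nearest members were CR45739, CR43243 and CR43644 at 506, 509 and 512 bp from a coding start site. The nearest excluded peaks lay 485, 477 and 462 bp from one, at CR44365, CR45618 and tRNA:Val-CAC-2-5.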

How the data were processed

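ChIP-seq peak lists of 3 biological replicates of 1 group (dpn_eGFP_embryo) were used. Per the labels' protocols, chromatin was sonicated to 200 to 800 bp. Per the deposited lists of files, the authors called peaks and background regions per replicate and for all replicates pooled, against a control alignment, and thresholded them by IDR, a measure of agreement in rank between replicates. Aligner and peak caller: not given in the sources used here. The signal value of each region, in column 7 of the files as deposited, only ordered the entries of 1 list. Column 10 is the summit offset in bp, a unit of another kind. Each replicate list and the pooled list held 30000 entries. The dm6 thresholded list of 5164 peaks is the main source, and its entries are the 5164 strongest of the pooled list. Lists on the older genome build were not used. Read depth is unknown, so no interval from read counts is given, and the limits beside shares of 0 count genes, at 3 genes.

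Start sites were all transcript starts of Ensembl release 115. Entries for mature microRNAs (481) repeat their precursors and were left out of counts of genes. A replicate's top entries are its 5164 strongest. Summits were matched within 150 bp. Motifs were searched in the 50 bp on either side of a summit, without the summit base, and in equal windows 400 bp away. Differences were tested by an exact sign-flip permutation over replicates. The labels do not say how far apart the replicates were handled, so p-values measure the spread between these samples. Positions count from 1. Members and lists were chosen with earlier results of these data known. Named genes were the 20 best-ranked, the 3 best-ranked of each biotype and the genes of a well-known list, with the members at the limits of the rule. The microRNA host genes, the upstream element and other genes named were chosen after their values were seen. Scripts (Python 3.11.15, numpy 2.4.6, pandas 2.3.3, matplotlib 3.10.9) were tested on simulated data. Alternatives changed the windows, annotation, peak set and matching, and left out each replicate.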

Additional observations from a re-analysis of the deposited data

How the results depend on the processing

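The number of peaks that met the rule stayed within 1.5 times of 133 under windows of 250 bp (92) and 1000 bp (179), a coding window of 1000 bp (107), gene start sites only (143), the NCBI annotation (132, all of them among the 133) and with transposable elements kept (161, chosen after seeing the data), while the 2582 strongest entries held 66, by construction. Without 1 replicate, as peaks matched in both others, 97 to 103 remained; these still came from a threshold set with all 3. The ncRNA share then was 85.4% to 86.6%, the share of non-coding genes with a peak 2.81% to 3.09% (2.64% with windows of 250 bp and 6.42% with 1000 bp), the share of summits with TATCGA 4.85% to 6.80%, and the share of summits within 100 bp 19.6% to 22.3%. TATCGA stood within 100 bp of 12% of the summits, since a wider window offers more places, and in 4.38% and 5.80% of the own entries of replicates 1 and 3; in the flanks it went from 1.5% at 400 bp to 7.52% at 800 bp, and the cause was not tested. The difference in recovery was 3.03 points with matches within 50 bp, positive in 3 of 3 replicates (exact sign-flip permutation p = 0.25), -0.225 points with matches within 300 bp and ran from -0.425 to 1.85 without 1 replicate, and that in median rank from -48.0 to 41.2; the sign of both depended on these settings. The microRNA host difference ran from 19.7 to 19.9 points without 1 replicate. No paired analysis was possible because there is 1 group, so replicate numbers pair no groups; the differences tested are taken within each replicate. Without read counts, the counting error of single ranks is unknown, and ranks near 5164 are the least certain.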
